A study of Mus musculus with 2 samples.

Results

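The 6 genes described here encode 2 type I interferons, Ifnb1 and Ifna4, and the 4 chains of the type I and type II interferon receptors, Ifnar1, Ifnar2, Ifngr1 and Ifngr2. They were chosen by gene symbol and are 6 of the 55536 mouse genes in the deposited tables. The RNA came from primary macrophages that were grown from the bone marrow of C57BL/6J mice and then stimulated for 120 minutes, and its polyadenylated part was sequenced. The description gives the stimulus as lipid A at 100 ng/ml, whereas the treatment and source fields name lipoprotein A, a protein. Lipid A is the part of bacterial lipopolysaccharide that the receptor Tlr4 senses. There was 1 group of 2 libraries, biological replicates 1 and 2, and both name 1 donor record. Whether they came from separate animals is therefore not known, and the SD may be technical. Age and sex were not collected, per the labels. Unstimulated cells were not analysed here, so a value describes cells under the stimulus and gives no change caused by it. In bulk RNA, fewer cells of a type and less RNA per cell cannot be told apart.

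Macrophages that sense lipopolysaccharide switch on interferon beta through the adaptor Ticam1 and the transcription factor Irf3, together with NF-kappaB and AP-1 factors at a compact upstream enhancer. Secreted interferon beta and the interferon alphas bind a receptor made of Ifnar1 and Ifnar2, whose kinases Tyk2 and Jak1 activate transcription factors of the STAT family. Interferon gamma, made mainly by T cells and NK cells, binds a separate receptor made of Ifngr1 and Ifngr2, which signals through the kinases Jak1 and Jak2. In mouse, Ifnar2 also gives a shorter mRNA for a soluble chain without the membrane anchor, which can act as a decoy or a carrier for the ligand.

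The upstream sequences of both ligand genes are shown because these are where the factors that start interferon transcription bind. They were taken from RefSeq (GRCm38.p6) and are written 5′ to 3′ on the strand of the gene. Capitals mark the letters AANNGAAA, the core that interferon regulatory factors read, and, in Ifnb1 alone, a loose frame of the NF-kappaB site, GGG and CC with 5 free bases between them. Ifnb1 lies on the minus strand, and bases -200 to -51 from its start, chr4:88522845-88522994, read as follows.
Ifnb1: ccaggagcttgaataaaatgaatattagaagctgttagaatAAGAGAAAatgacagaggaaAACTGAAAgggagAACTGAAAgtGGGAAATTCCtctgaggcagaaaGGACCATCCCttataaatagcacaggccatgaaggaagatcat
Ifna4 lies on the plus strand, and bases -250 to -51 from its start, chr4:88841566-88841765, read as follows.
Ifna4: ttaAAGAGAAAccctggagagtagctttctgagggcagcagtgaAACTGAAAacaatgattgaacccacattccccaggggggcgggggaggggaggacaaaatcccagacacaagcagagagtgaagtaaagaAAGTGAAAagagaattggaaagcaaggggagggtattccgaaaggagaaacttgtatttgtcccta

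All 6 genes matched a RefSeq promoter, and the 250 bases upstream of each were searched on both strands. Both ligand genes held AANNGAAA 3 times and the 4 receptor genes held it 0 times, in a set where 21.3% of 32851 promoters held it. In Ifnb1 these matches began at -159, -139 and -126. The longer core of an interferon-stimulated response element, GAAA and GAAA with 2 free bases between them, was found in Ifna4 alone of the 6, at -208 and -118, where it overlaps the shorter core, against 2.98% of all promoters. The NF-kappaB frame was found in Ifnb1 at -116 and on the other strand at -93, 4 times in Ifngr2 and once in Ifngr1, and it is common, at 45.8% of promoters. Ifnb1 was also the member with TATAAA, at -210 and -82 (12.4% of promoters), and Ifnar2 the member with TTCNNNGAA, a gamma-activated frame, at -214 (7.02% of promoters). GGGCGG, the box read by Sp1, was found once in Ifna4, 2 times in each of Ifnar1 and Ifngr1 and 4 times in Ifngr2 (32.7% of promoters). These matches describe letters in these windows and say nothing of whether a factor was bound.

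Ifnb1, the gene of interferon beta, was abundant in both libraries. Its level was 101 TPM in replicate 1 and 69.7 TPM in replicate 2, where TPM is abundance scaled to transcript length and to the library. The mean of 85.5 ± 22.3 TPM (SD, n = 2) was above that of 86.1% of the 10285 genes at 1 TPM or more in both libraries. The underlying estimated counts were 1067 of the 33272581 on mouse genes in replicate 1 and 1079 of 50266403 in replicate 2. As a share of the library these are 32.1 and 21.5 CPM, counts scaled to library size, with exact Clopper-Pearson 95% intervals of 30.2 to 34.1 and 20.2 to 22.8, which cover counting error only. The intervals do not overlap, so the libraries differed by more than counting error. Ifnb1 is a gene of 1 exon on chromosome 4 (mm10 chr4:88522025-88522774, minus strand) with 1 annotated transcript of 750 bases. That transcript is annotated with a 5′ UTR of 0 bases, and the RefSeq start used for the upstream sequence lies further upstream. The effect of this on the level was not tested. Ifnb1 encodes 182 residues and has a 3′ UTR of 201 bases that holds 4 copies of ATTTA. Those are the core letters of elements that shorten the life of many cytokine mRNAs.

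A second quantification of the same libraries, made from the reads and an index rather than from an alignment, gave more of Ifnb1. It listed 1665 estimated counts in replicate 1 and 1928 in replicate 2, which is 1.56 and 1.79 times the first counts. Over genes whose mean count reached 50 the median of that quotient was 1.08 and 1.11, and Ifnb1 was above 98.2% and 98.7% of them. The second TPM of Ifnb1 was 120 in replicate 1 and 82.6 in replicate 2, so replicate 1 was higher in both tables. None of the 720 stretches of 31 bases in the Ifnb1 transcript occurs in another annotated transcript, so sharing of sequence with annotated genes at that length was not found for it. The cause of the larger second count was not tested.

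Ifna4, an interferon alpha gene known as one of the first of its family to be transcribed in mouse cells, was near the limit of detection. It had 2 counts in replicate 1 and 4 in replicate 2, or 0.32 and 0.43 TPM, with authors' intervals of 0.0491 to 0.967 TPM and 0.125 to 0.983 TPM. The counts equal 0.0601 CPM in replicate 1 and 0.0796 CPM in replicate 2, and the limit that a count of 0 allows, 3 counts, is 0.0902 and 0.0597 CPM in them. The second quantification listed 9 counts in replicate 1 and 16 in replicate 2, or 1.02 and 1.06 TPM. Ifna4 (chr4:88841861-88842421, plus strand, 1 exon) is annotated by its 561 coding bases alone. It shares 77 of its 531 stretches of 31 bases, 14.5%, with 13 other genes, first among them Ifna6, Ifna15 and Ifna13, so reads of close copies could be split between them and its value is uncertain.

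The 16 other type I interferon genes, all on chromosome 4, were likewise at or near 0. Of these, 9 had no count in either library in the first quantification. There, all 16 together held 18 counts in replicate 1 and 38 in replicate 2. Ifnb1 alone held 59.3 and 28.4 times as many counts. Ifna5 had 5 and 17 counts in replicates 1 and 2 (0.77 and 1.77 TPM) and Ifna2 had 9 and 17 (0.53 and 0.68 TPM). Ifna1 had 1 count in each, Ifnz had 3 in replicate 1, and Ifna6, Ifna14 and Ifnab had 1 each in replicate 2. Ifng, the ligand of the type II receptor, had 1 count in replicate 1 and 0 in replicate 2, and the interferon lambda genes Ifnl2 and Ifnl3 had 0 in both. No interferon gene other than Ifnb1 reached 1 TPM in both libraries in the first quantification. The second quantification gave a count to 10 of the 16 other type I genes. Together they held 28.5 counts in replicate 1 and 50 in replicate 2 there.

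**Figure D1:**
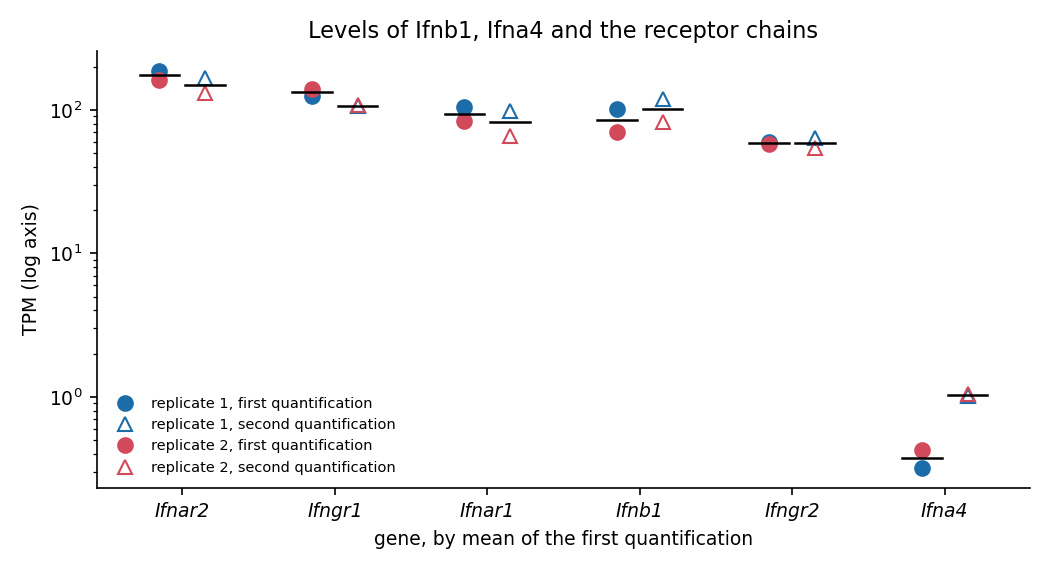
TPM of the 6 genes on a log axis, as filled circles for the first quantification and open triangles for the second, with replicate 1 in blue, replicate 2 in red and the mean of each pair as a black line. The receptor chains and Ifnb1 lie between 53.9 and 187 TPM, and Ifna4 lies at 0.32 and 0.43 TPM in the first quantification.

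Ifnar2, the chain of the type I receptor that binds the ligand tightly, had the highest gene level of the 6. It stood at 187 TPM in replicate 1 and 160 TPM in replicate 2 (174 ± 19.1 TPM, SD, n = 2), above 92.6% of the genes at 1 TPM or more in both libraries. Ifnar1 (chr16:91485238-91507441, plus strand), the partner chain that carries Tyk2, stood at 104 and 83.7 TPM in replicates 1 and 2 (93.9 ± 14.5 TPM). The TPM of Ifnar2 was thus 1.80 times that of Ifnar1 in replicate 1 and 1.92 times in replicate 2, and 1.70 and 1.98 times in the second quantification. That gene-level excess does not hold for the membrane form, as the transcripts of Ifnar2 show.

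Ifnar2 (chr16:91372783-91405589, plus strand) has 5 annotated transcripts. Ifnar2-201 encodes the full chain of 513 residues over 9 exons. Ifnar2-203 runs on past the end of exon 7 to a stop and encodes 248 residues, of which the first 710 coding bases are the same as in Ifnar2-201. Ifnar2-202 skips exon 8, changes frame in the last exon and encodes 247 residues. Ifnar2-204 and Ifnar2-205 are incomplete at the 3′ end in the annotation. The bases on either side of the end of exon 7 are shown because they are what separates the soluble from the membrane form. Lower case marks the 30 last bases of exon 7, chr16:91393884-91393913, and capitals mark what follows in each mRNA.
Ifnar2-201: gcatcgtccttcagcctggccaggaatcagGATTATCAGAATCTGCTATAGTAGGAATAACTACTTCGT
Ifnar2-203: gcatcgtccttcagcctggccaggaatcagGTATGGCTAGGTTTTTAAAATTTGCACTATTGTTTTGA
Ifnar2-202: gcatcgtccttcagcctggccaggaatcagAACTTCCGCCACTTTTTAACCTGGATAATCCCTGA
Ifnar2-201 joins exon 8 at chr16:91399218-91399256, Ifnar2-203 reads the adjoining bases chr16:91393914-91393951 up to its stop, and Ifnar2-202 joins the last exon at chr16:91403710-91403744, where it also stops. Sequences are from the GENCODE M21 transcripts on mm10. A window of 19 residues past residue 40 reached a mean Kyte-Doolittle hydropathy of 2.40 at residues 243 to 261 in Ifnar2-201, in the stretch coded after exon 7. In Ifnar2-203 and Ifnar2-202 the highest such window was 1.16, whereas the full chains of Ifnar1, Ifngr1 and Ifngr2 reached 2.25, 2.82 and 2.42.

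The soluble form was the leading Ifnar2 mRNA in both libraries when each transcript was scaled to its length. Ifnar2-203 took 53.9% of the gene's TPM in replicate 1 and 51.2% in replicate 2 (52.5 ± 1.92%, SD, n = 2). The membrane form Ifnar2-201 took 39.5% in replicate 1 and 42.1% in replicate 2 (40.8 ± 1.80%). The values of these transcripts do not overlap, and the gap between them is larger than either SD. Ifnar2-202 took 1.43% and 0.81%, Ifnar2-204 took 4.02% and 3.77%, and Ifnar2-205 took 1.12% and 2.17% in replicates 1 and 2. Both mRNAs without exon 8 together, Ifnar2-203 and Ifnar2-202, came to 53.7 ± 2.36% of the gene. In TPM, Ifnar2-203 stood at 101 and 82.1 and Ifnar2-201 at 74.1 and 67.5 in replicates 1 and 2. The authors' intervals on posterior TPM were 90.7 to 103 and 74.5 to 84.3 for Ifnar2-203, against 68.3 to 73.5 and 63.1 to 67.2 for Ifnar2-201, and did not overlap in either library.

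This order rests on the division by length. Ifnar2-203 is 1099 bases long and Ifnar2-201 is 3047, and of the estimated counts themselves the membrane form held 70.3 ± 2.07% and both soluble forms 28.3 ± 2.05%. In counts, Ifnar2-201 had 4619 in replicate 1 and 6195 in replicate 2, and Ifnar2-203 had 1859 and 2221. Few bases set Ifnar2-203 apart. All of it is shared with Ifnar2-201 except the end of its last exon, of 284 bases against 157 in exon 7 of Ifnar2-201. In Ifnar2-201 those further bases are intron, so reads of RNA not yet spliced could also fall there. The part of such reads in the share of Ifnar2-203 was not tested. The second quantification, which also divides by length, gave 38.2% and 39.1% for the membrane form and 57.4% and 56.2% for the soluble forms in replicates 1 and 2. Against Ifnar1, the membrane form alone stood at 0.711 times the TPM in replicate 1 and 0.806 times in replicate 2. Among 3931 genes with more than 1 annotated transcript and a mean of 20 TPM or more, the median share of the leading transcript was 82.1%, and 19.3% of them had a lower one than the 52.5% of Ifnar2.

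**Figure D2:**
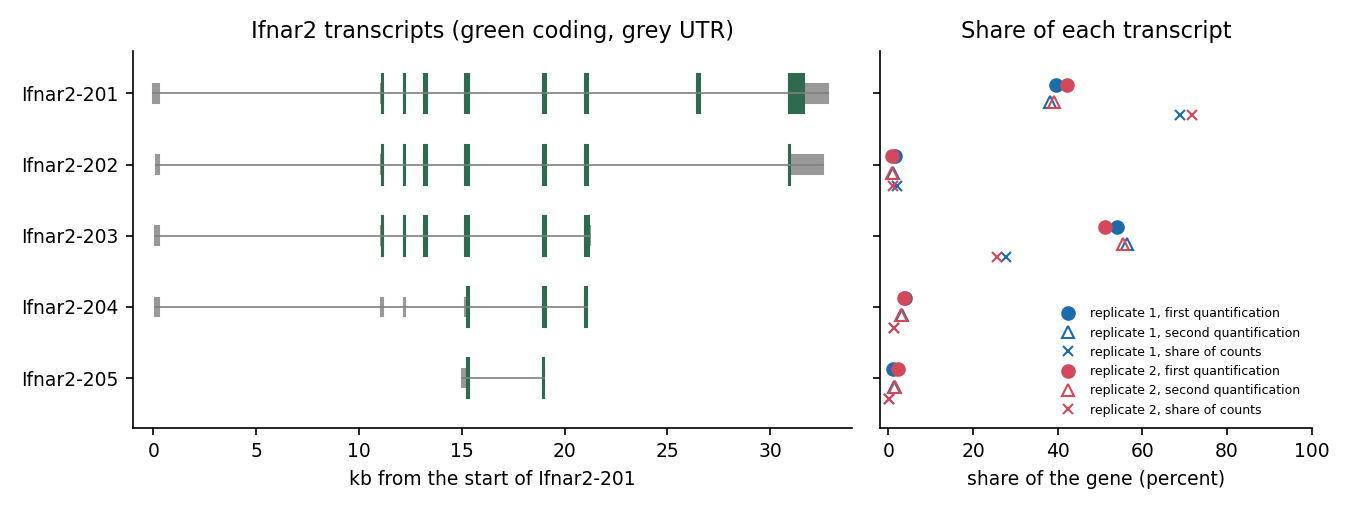
Left, the 5 Ifnar2 transcripts with coding exons as tall green blocks and untranslated parts as grey blocks, in kb from the start of Ifnar2-201. Right, the share of each transcript in percent, as filled circles for TPM in the first quantification, open triangles for TPM in the second and crosses for estimated counts, replicate 1 in blue and replicate 2 in red: the circles of Ifnar2-203 lie at 53.9 and 51.2% and those of Ifnar2-201 at 39.5 and 42.1%, while the crosses are in the opposite order.

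The other receptor chains were made mostly of 1 transcript each. Ifnar1-201, with 590 residues, took 81.5% of the gene in replicate 1 and 82.9% in replicate 2. Ifnar1-202 took 14.5% and 12.1%, with the same coding sequence and a 3′ UTR shorter by 1112 bases, and in the second quantification its share was 7.42% and 6.85%. Ifngr1-201, with 477 residues, took 99.7% and 97.9%, and Ifngr2-201, with 332 residues, took 99.6% and 98.4% in replicates 1 and 2. The second quantification gave Ifngr2-201 less, 81.6% and 84.9%, and placed 11.6 and 7.49 TPM on Ifngr2-202, a transcript of 534 bases annotated for nonsense-mediated decay. In the 3′ UTR, Ifngr2-201 holds 6 copies of ATTTA in 2618 bases, Ifnar1-201 holds 1 in 2030 bases, and Ifnar2-201 and Ifngr1-201 hold 0 in 1175 and 541 bases.

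Ifngr1, the chain of the type II receptor that binds interferon gamma, stood at 125 TPM in replicate 1 and 140 TPM in replicate 2 (132 ± 10.4 TPM, SD, n = 2). Ifngr2 (chr16:91547072-91565623, plus strand), its signalling partner, stood at 59.5 and 57.5 TPM (58.5 ± 1.45 TPM), the lowest of the receptor chains and still above 80.3% of the genes at 1 TPM or more in both libraries. Ifngr1 was 2.10 times Ifngr2 in replicate 1 and 2.43 times in replicate 2, and 1.66 and 2.00 times in the second quantification. In both receptors the chain known as the main ligand-binding one thus had the higher gene-level TPM in both libraries and both quantifications. Ifngr1 (chr10:19591949-19610229, plus strand) shares 1.28% of its stretches of 31 bases with other genes.

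By mean TPM the order was Ifnar2, Ifngr1, Ifnar1, Ifnb1, Ifngr2 and Ifna4. Ifnar2 over Ifngr1 was 1.31, Ifngr1 over Ifnar1 was 1.41 and Ifnb1 over Ifngr2 was 1.46, and in each of these pairs the values of the 2 libraries did not overlap. Ifnar1 over Ifnb1 was 1.10 and their values overlapped, and the second quantification put Ifnb1 higher, at 1.23 and 1.25 times Ifnar1 in replicates 1 and 2, so these neighbours do not differ beyond their spread. Ifnb1 mRNA was thus at the level of the mRNA for a chain of its own receptor. Ifngr2 over Ifna4 was 156.

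Ifnar2, Ifnar1 and Ifngr2 lie on the plus strand of chromosome 16 (chr16:91372783-91565623), within 193 kb that also hold Il10rb, a chain shared by the receptors for interleukin 10 and the interferon lambdas. Of the 12 annotated genes in that span, these 4 were at 1 TPM or more in both libraries and the other 8 were not. Il10rb was the most abundant of them, at 276 TPM in replicate 1 and 237 TPM in replicate 2 (256 ± 27.4 TPM), and Ifngr2 at 58.5 ± 1.45 TPM the least. Gm21970, annotated as coding and overlapping Ifnar2 on the same strand, has 6 exons, of which 2 equal exons of Ifnar2 and 3 equal exons of Il10rb. It was given 0 and 1.98 counts in replicates 1 and 2, and it is the 1 other gene that shares stretches of 31 bases with Ifnar2, 285 of 3354 or 8.50%. Of 11 type II and III interferon genes and further chains of the same receptor class, 3 were at 1 TPM or more in both libraries, and beside Il10rb these were Il10ra, the ligand-binding chain for interleukin 10, at 122 ± 0.530 TPM and F3, which encodes tissue factor, at 5.26 ± 0.163 TPM. Il20rb, a chain of the interleukin 20 receptors, was the furthest apart of the 4 with enough counts, at 1.37 TPM in replicate 2 and 0.8 TPM in replicate 1 (log2 ratio 0.72).

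**Figure D3:**
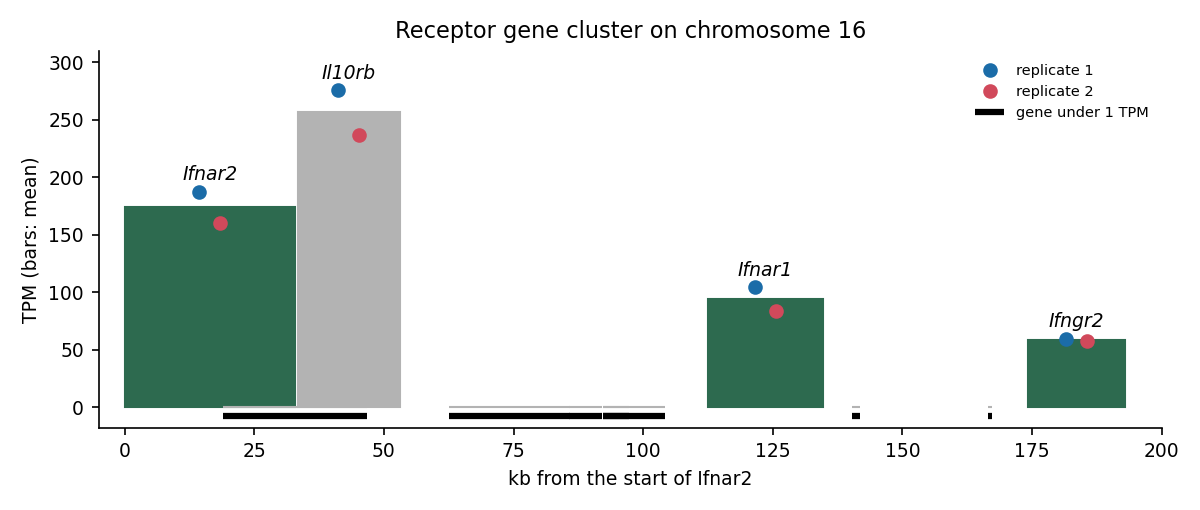
Genes of the receptor cluster on chromosome 16, placed by kb from the start of Ifnar2, with bars drawn over each gene's span to its mean TPM on a linear axis (green for Ifnar2, Ifnar1 and Ifngr2, grey for Il10rb), points for replicate 1 in blue and replicate 2 in red, and black strips for genes under 1 TPM. Il10rb at 256 TPM and Ifnar2 at 174 TPM stand above Ifnar1 at 93.9 TPM and Ifngr2 at 58.5 TPM.

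The libraries differed in depth, with 33319563 and 50334059 counts in replicates 1 and 2, and the spread between them came to a coefficient of variation of 21.5% over 12178 genes. Ratios of replicate 2 over replicate 1 were taken on CPM with TMM scaling, for genes whose mean count reached 50, and have no replicate check. Of 10445 such genes, 417 were 2-fold or more apart, 3.99% (193 or 1.85% higher and 224 or 2.14% lower in replicate 2). Scaling by library total alone moved the median of all genes by -0.17 (log2), with 117 higher and 372 lower. Taking log2 of TPM + 1 moved it by -0.11, with 66 higher and 164 lower. Some ratios that follow are therefore also given against the median of all genes, 0.03. These are the genes described here that reached that count, the type I interferon targets and the Ifnb1 promoter factors. Other ratios are under TMM unless stated and are not given that way. Macrophage markers were high in both libraries, with 8 of 8 at 1 TPM or more, and their median was 686 TPM, led by Lyz2 at 16400 TPM, Cd68 at 3087 TPM and Cd14 at 1927 TPM. Granulocyte markers were lower in replicate 2, where 4 of the 5 with enough counts were 2-fold or more lower, and their summed level was 102 TPM there and 563 TPM in replicate 1.

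Of the 6 genes, 5 passed the count minimum, Ifna4 being left out, and 0 of those 5 were 2-fold apart, against 3.99% of all genes. Ifnb1 was the furthest apart, with a ratio of 0.751 for replicate 2 over replicate 1 (log2 -0.41, counting interval -0.54 to -0.29), and 73.2% of all genes had a smaller absolute ratio. Against the median of all genes Ifnb1 was at -0.44 under TMM, at -0.45 on log2 of TPM + 1 and at -0.28 in the second quantification. Ifngr1 was the furthest the other way, with a ratio of 1.21 (log2 0.28), or 0.25 against the median of all genes. Ifnar1 was at log2 -0.18, or -0.20 against that median, and Ifnar2 at -0.07, or -0.09. Ifngr2 was at log2 0.06 under TMM and at -0.10 under library totals, a change of sign, and at 0.03 against the median of all genes under both. All of these are within the spread of single genes between these libraries, so no difference in any of these 5 can be told from that spread.

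**Figure D4:**
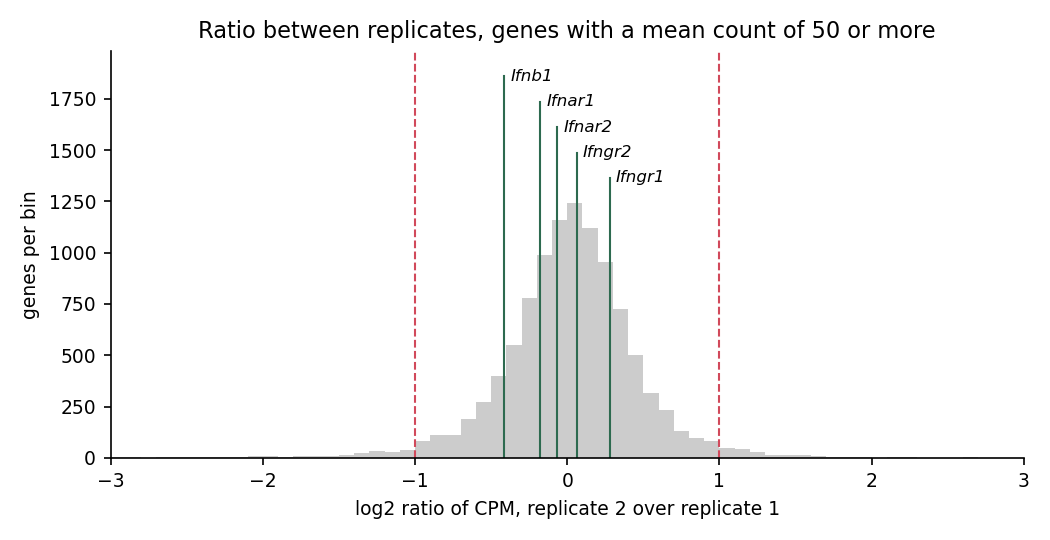
Number of genes in each bin of 0.1 of the log2 ratio of CPM, replicate 2 over replicate 1, for the 10445 genes that reached the count minimum, with the ratios of the 5 genes that passed as green lines and 2-fold marked by red dashed lines. The green lines lie between -0.41 and 0.28, inside the dashed lines. Genes beyond 3 on the log2 scale are not drawn.

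Among markers of other cells that could make interferon, 3 plasmacytoid dendritic cell markers were higher in replicate 2. The other markers of that list were lower there. So were the summed levels of the dendritic cell, T and NK cell, B cell and granulocyte lists. Siglech, a defining marker of plasmacytoid dendritic cells, which are the main source of interferon alpha in mice, had 22 counts in replicate 2 and 90 in replicate 1 (log2 ratio -2.46). Of the 8 markers on that list, 3 were at 1 TPM or more in both libraries, and those were Bst2 at 453 TPM, Irf8 at 197 TPM and Tcf4 at 33.8 TPM, the first of which is also an interferon target. These 3 were higher in replicate 2, at log2 ratios of 0.61, 0.82 and 0.41, so of the 4 markers with enough counts 3 were higher and Siglech lower, with a median of 0.51. Spib, Ccr9, Ly6d and Pacsin1, below the count minimum, averaged 0.14 to 0.695 TPM, and each was lower in replicate 2, Spib for example at 0.24 TPM there and 1.15 TPM in replicate 1. The summed level of the list was 812 TPM in replicate 2 and 562 TPM in replicate 1, carried by Bst2 and Irf8. Of 7 dendritic cell markers 1 was at 1 TPM or more in both libraries, Ccr7 at 1.70 TPM, and the furthest apart was Zbtb46 at log2 -1.72, with summed levels of 3.15 TPM in replicate 2 and 6.50 TPM in replicate 1. Of 10 T cell and NK cell markers, the cells that make interferon gamma, 0 were at 1 TPM in both libraries and 4 were at 0 in both, Cd8a and Trac among them, with sums of 0.2 TPM in replicate 2 and 1.02 TPM in replicate 1. Of 6 B cell markers 1, Cd79b at 1.86 TPM, was at 1 TPM in both. The granulocyte markers were led by S100a9 at 153 TPM, S100a8 at 93.6 TPM and Csf3r at 39.8 TPM, and Ngp was the furthest apart at log2 -4.27. In replicate 1 alone, 6 of the plasmacytoid dendritic cell markers, 2 of the dendritic cell markers and 8 of the 10 granulocyte ones reached 1 TPM. The part of any of these cells in the levels of Ifnb1 was not tested.

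Genes that lead to Ifnb1 were present throughout. Of all mouse genes, 18.5% reached 1 TPM in both libraries. All 11 genes of the list for sensing of lipid A did, and their median was 28.7 TPM, where the 10285 genes at that level had a median of 14.1 TPM. The highest were the co-receptor Cd14 at 1927 ± 280 TPM, Tank, an adaptor of the kinases that act on Irf3, at 152 ± 10.7 TPM, and Ikbke, one of those kinases, at 121 ± 17.5 TPM (SD, n = 2 each). Ly96, the Tlr4 subunit that holds lipid A, was the furthest apart, at 49.7 TPM in replicate 2 and 92.6 TPM in replicate 1 (log2 ratio -0.77). Between the libraries 6 of the 11 were higher and 5 lower in replicate 2 and 0 were 2-fold apart, where 53.5% of all genes were higher and 3.99% were 2-fold apart, so these counts are near the background. All 14 genes for factors known to act at the Ifnb1 promoter also reached 1 TPM in both, and their median was 114 TPM. Irf1 stood at 776 ± 32.0 TPM, the architectural protein gene Hmga1 at 302 ± 42.4 TPM and the NF-kappaB subunit gene Nfkb1 at 276 ± 6.41 TPM. Jun, an AP-1 subunit, was the furthest apart at log2 0.95, with 33.6 TPM in replicate 2 and 18.99 TPM in replicate 1.

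Genes that act below the receptors were present as well. The 7 kinases and transcription factors of the receptor complexes all reached 1 TPM in both libraries, and their median was 98.0 TPM. Jak1, the kinase common to both receptors, stood at 124 ± 11.3 TPM and Jak2 at 103 ± 5.23 TPM, and Stat3 was the furthest apart at log2 0.49. All 9 genes listed as negative regulators at the receptors were present, and their median was 104 TPM. Highest by mean were the ubiquitin-like modifier gene Isg15 at 893 ± 216 TPM, Socs3 at 603 ± 19.6 TPM and the phosphatase gene Ptpn1 at 117 ± 62.3 TPM. Ptpn1 stood at 73.0 TPM in replicate 1 and 161 TPM in replicate 2, so its rank rests on replicate 2. Isg15 is also on the list of type I targets, and its action at the receptors was not tested. The 20 type I interferon target genes all reached 1 TPM, and their median was 291 TPM. Highest were the chemokine gene Cxcl10 at 4255 ± 1014 TPM and the antiviral genes Rsad2 at 2211 ± 741 TPM and Ifit1 at 1002 ± 289 TPM. Of 16 interferon gamma targets, 15 reached 1 TPM in both, and the median of all 16 was 147 TPM. Highest were Irf1, the GTPase gene Gbp5 at 531 ± 93.0 TPM and Cd74, the invariant chain of antigen presentation, at 456 ± 81.3 TPM, and Ido1 was the exception with 1 count in each library. Many of these genes are also direct targets of NF-kappaB or Irf3, and with no unstimulated libraries their levels do not separate these inputs.

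The type I target genes were higher in replicate 2 together. All 20 type I target genes had a higher CPM in replicate 2, with a median log2 ratio of 0.46, whereas 53.5% of all genes were higher and their median was 0.03. Ifnb1 was at -0.41, which cannot be told from the spread of single genes. Under library totals 19 of the 20 were higher, Mx1 being the exception, and against the median of all genes the list stood at 0.43 under TMM and under library totals and at 0.38 on log2 of TPM + 1. Markers of cell types moved between the same libraries: 7 of 8 macrophage markers were higher in replicate 2 under TMM and 4 of 8 under library totals (median log2 ratio 0.16 under TMM, Lyz2 at 0.64 and Cd14 at 0.44), and all 5 granulocyte markers with enough counts were lower (median -2.89). Their part in the levels of the target genes was not tested. Oas3 was the 1 gene of the list 2-fold apart, at log2 1.14, with 92.0 TPM in replicate 2 and 46.7 TPM in replicate 1, and under library totals 0 were. Of the 15 interferon gamma targets with enough counts 14 were higher and Iigp1 was the exception at log2 -0.45, with a median of 0.49 and Gbp2 furthest apart at log2 1.04, and under library totals 12 were higher. The 7 kinases and transcription factors and the 9 genes listed as negative regulators were all higher under TMM, with medians of 0.33 and 0.39. Under library totals 5 of the 7 and 6 of the 9 were higher. Of the factors at the Ifnb1 promoter, 9 of 14 were higher under TMM and 4 of 14 under library totals, with a median of 0.09 under TMM. Library totals put the median of all genes at -0.14, and against the median of all genes this list stood at 0.06 under both scalings. With 1 library on each side these are descriptions of the 2 libraries and carry no test.

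**Figure D5:**
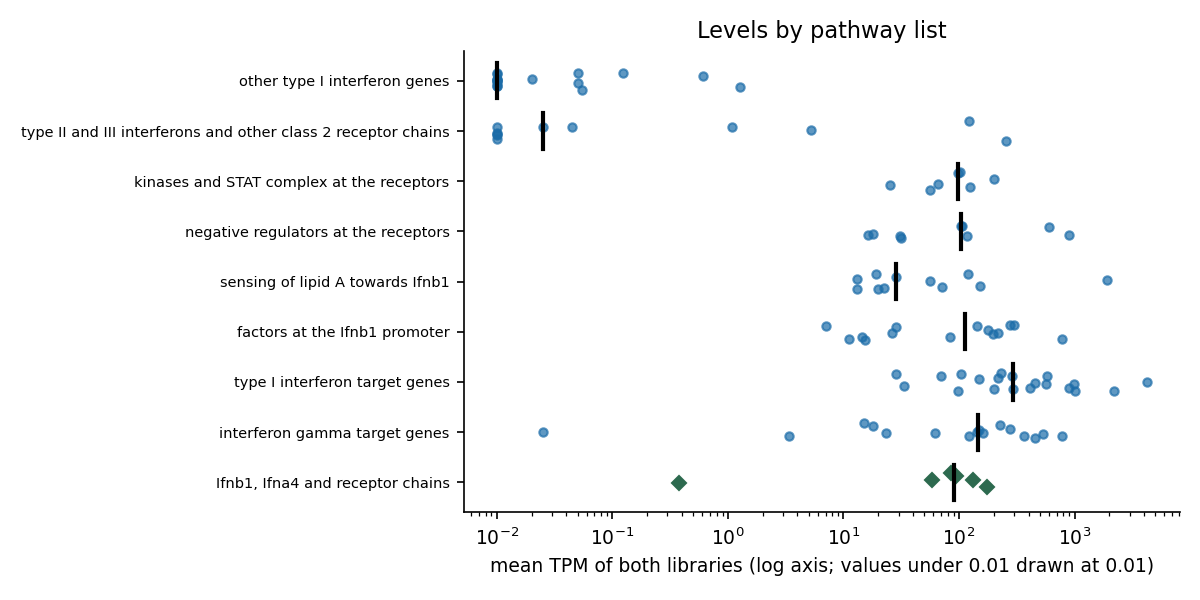
Mean TPM of both libraries for each gene of 8 pathway lists (blue circles) and for the 6 genes described here (green diamonds), on a log axis with values under 0.01 drawn at 0.01, and the median of each list as a black bar. Type I interferon targets have a median of 291 TPM, the kinases and transcription factors 98.0 TPM and the other type I interferon genes 0 TPM.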

How the data were processed

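The 2 libraries form 1 group. For each, the authors deposited expected counts, TPM and FPKM by gene and by transcript, and, for transcripts, the percent of the TPM of their gene, in columns named as by RSEM. A further transcript table, in columns named as by kallisto per the file headers, gives estimated counts and TPM and was summed by gene here as the second quantification. Per the deposited descriptions, the first came from a transcriptome alignment and the second from 4 read files and an index, on mm10 with GENCODE M21. The program versions and strand setting are not given in the sources used here. Per the labels, 1 µg of RNA was used and sizes were 250 to 400.

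Members were matched by symbol (6 of 6). Entries that are not mouse genes, 0.141% and 0.134% of counts, were left out, and 86 mouse identifiers had no symbol. Expected counts were rounded to whole numbers. FPKM as deposited was used in no comparison. The ratio between libraries and its spread used edgeR 4.0.16 in R 4.3.3 (TMM factors 1.06 and 0.944, common dispersion with an intercept alone, 10 counts or more in both). The computation was also run on libraries simulated with 1 dispersion for all genes. That checks the computation alone and says nothing of the ratios between these libraries. No test between groups was made, since there is 1 group. Intervals are exact Clopper-Pearson intervals at 95% and, like the floor of 3 counts, leave out other error, because reads that carry no molecular identifiers need not be independent molecules. Promoters came from the RefSeq table of GRCm38.p6, and transcripts and exons from GENCODE M21. The genes named are the 6 members and genes picked by a rule. In each of 14 lists (141 different genes, some on more than 1 list) the rule took the 3 highest by mean TPM. It also took the 1 furthest from an equal level in both libraries among genes whose mean count reached 50. Further, it took each other type I interferon gene with a count, Il10rb, overlapping genes, all Ifnar2 transcripts and other transcripts at 5% or more. Genes named outside that rule (Ifng, Ifnl2, Ifnl3, Mx1, Ido1, Iigp1, Spib, Ccr9, Ly6d, Pacsin1, Cd8a, Trac, Ifngr2-202, and the genes sharing sequence with Ifna4) were chosen after their values were seen. A gene that the rule names is not reported here. The members and lists were chosen with earlier results of these data known. The rest used Python 3.11.15 with scipy 1.17.1, pandas 2.3.3, numpy 2.4.6, matplotlib 3.10.9 and Biopython 1.88. Alternatives were DESeq2 1.42.0 size factors, library totals, other minimums, other TPM denominators, posterior means, the second quantification and each replicate alone.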

Additional observations from a re-analysis of the deposited data

How the results depend on the processing

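Of 195 alternatives over 39 results, 138 stayed within the limit set for their kind and 57 moved. The limit was 1 SD between replicates for levels, chain ratios and transcript shares, and 1.5 times for numbers of genes. For log2 ratios it was the counting interval. For Ifna4 that interval ran from -2.23 to 4.04 and held every alternative, so those say little. Changes of sign or of order were not labelled apart from other moves. For levels, chain ratios and transcript shares, leaving out 1 library had to stay within the spread. Each of 2 values lies within 1 SD of their mean, so those alternatives test nothing. A ratio of 2 genes in a library cannot move with the TPM denominator, and CPM per effective length is TPM on another scale. Those alternatives of the chain ratios test nothing either. The membrane share of Ifnar2 and the share of Ifnar2-201 are the same values, counted as 2 results. The number that stayed therefore overstates how far the results were checked. The second quantification gave a mean of 1.04 TPM for Ifna4 (posterior mean 0.485), 148 TPM for Ifnar2, 107 TPM for Ifngr1 and 1.83 for Ifngr1 over Ifngr2. It gave 38.7% for membrane and 56.8% for soluble Ifnar2, while shares of counts were 70.3% and 28.3%, which puts the forms in the opposite order. TPM over protein coding genes gave 110.2 for Ifnar1, 204 for Ifnar2, 156 for Ifngr1 and 68.7 for Ifngr2, and TPM without mitochondrial genes 62.5 for Ifngr2. Genes 2-fold apart numbered 189 at a mean count of 200 or more (116 higher, 73 lower in replicate 2), 5852 with no filter (2838 higher, 3014 lower) and 230 on log2 of TPM + 1 (66 higher), and under library totals 117 were higher and 372 lower. Asking for 5 TPM in both libraries left 0 B cell, 3 granulocyte and 0 dendritic cell markers, and the second quantification 0 dendritic cell markers. With 1 library left out, 0 to 1 of the other type I interferon genes, 3 to 6 plasmacytoid dendritic cell, 5 to 8 granulocyte and 1 to 2 dendritic cell markers were at 1 TPM. The Ifnb1 log2 ratio ran from -0.58 (library totals) to -0.25 (second quantification). No paired analysis was possible because the labels give 1 group.

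Depth limits Ifna4 and the other interferon genes, where 3 counts are 0.0902 and 0.0597 CPM. With 2 libraries and the same donor record, the SD says little about the spread between animals. Transcript shares depend on how reads common to several transcripts were assigned, and strand was not stated, so antisense reads cannot be told apart.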
